A study of Mus musculus with 14 samples.

Results

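A set of 8 receptors that steer T cells towards tissues or inflamed sites was followed in regulatory T cells (Tregs) of lymph nodes: Ccr2, Ccr4, Ccr9, Ccr10, Cxcr4, Cxcr5, Cxcr6 and Gpr15. They were taken by gene symbol, and all 8 were found among the 14449 genes of the deposited expression table. The libraries came from Il1rn-/- mice, which lack the IL-1 receptor antagonist and on the BALB/c background are known for spontaneous arthritis, and from wild-type mice. All mice were of the BALB/c strain and postnatal day 35, and every library was made by Smart-Seq2, a low-input RNA-seq method, from lymph node cells sorted as CD4+Foxp3eGFP+, so that the Foxp3 reporter was shared by both genotypes. There were 7 Il1rn-/- libraries (3 in set a, 4 in set b) and 7 wild-type libraries (3 in set a, 4 in set b), where the letter is part of the sample title and its meaning is not given in the labels. The labels do not say that each library came from a separate animal, so the p-values measure only the spread between libraries.

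Chemokine receptors are G protein-coupled receptors that signal mainly through Gi proteins, so that a cell moves towards the source of the ligand, after which kinases and arrestins switch the receptor off. Tregs that leave the naive state are known to replace receptors for lymphoid tissue with receptors for skin, gut, inflamed sites or B cell follicles, and the mix a Treg carries is read as its address. Among the receptors here, Cxcr4 binds CXCL12 of bone marrow and lymphoid stroma, Ccr4 binds CCL17 and CCL22, Ccr2 binds CCL2 at inflamed sites and Cxcr6 binds CXCL16. Ccr10 binds CCL27 and CCL28 of skin and mucosa, Ccr9 binds CCL25 of small intestine and thymus, Gpr15 guides Tregs to the large intestine in mice, and Cxcr5 binds CXCL13 of B cell follicles.

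Promoter sequences are shown for Cxcr4, Ccr4, Ccr2 and Gpr15, the 4 receptors with the highest median level per transcript length. Each run is the 250 bases before the RefSeq start of the gene in GRCm38.p6, written 5′ to 3′ on the gene's own strand, with capitals for matches to the motifs searched.
Cxcr4, chr1:128592300-128592549, minus strand: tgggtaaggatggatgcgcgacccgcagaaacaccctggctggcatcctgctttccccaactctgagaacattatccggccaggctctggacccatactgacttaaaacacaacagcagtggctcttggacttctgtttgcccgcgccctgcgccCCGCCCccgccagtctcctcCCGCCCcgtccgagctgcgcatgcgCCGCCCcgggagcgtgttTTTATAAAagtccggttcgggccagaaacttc
Ccr4, chr9:114496545-114496794, minus strand: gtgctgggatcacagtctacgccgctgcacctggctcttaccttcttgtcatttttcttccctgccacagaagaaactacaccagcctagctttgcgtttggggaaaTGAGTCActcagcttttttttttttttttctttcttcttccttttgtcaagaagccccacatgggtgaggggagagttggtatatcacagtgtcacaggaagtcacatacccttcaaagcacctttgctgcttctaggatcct
Ccr2, chr9:124101933-124102182, plus strand: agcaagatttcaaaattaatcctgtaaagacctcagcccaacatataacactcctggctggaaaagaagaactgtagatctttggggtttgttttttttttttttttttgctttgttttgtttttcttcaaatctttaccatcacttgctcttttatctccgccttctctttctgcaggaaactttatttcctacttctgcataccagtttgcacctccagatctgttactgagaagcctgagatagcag
Gpr15, chr16:58718873-58719122, minus strand: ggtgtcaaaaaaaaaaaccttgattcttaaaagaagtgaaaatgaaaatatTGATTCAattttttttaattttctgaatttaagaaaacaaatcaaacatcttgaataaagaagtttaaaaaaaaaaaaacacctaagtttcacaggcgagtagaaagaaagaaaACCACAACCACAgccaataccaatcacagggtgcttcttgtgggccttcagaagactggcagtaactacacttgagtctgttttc
The motifs were searched on both strands of these windows. They were the TATA box (TATAAA), the GC box (GGGCGG), AP-1 (TGANTCA), RUNX (TGTGGT), STAT (TTCNNNGAA), forkhead (TGTTTAC) and the NF-kB consensus by its name. Cxcr4 alone among the 6 receptors with a RefSeq promoter held a TATA box, at -30 to -25 from the start and overlapping a match on the other strand, and it also held GC boxes in reverse at -95, -75 and -50. The TATA box was in 12.4% and the GC box in 32.7% of 32851 RefSeq promoters of this length. Ccr4 held an AP-1 match at -143 to -137 and Gpr15 held another at -199 to -193, where 6.75% of all promoters held at least 1. Gpr15 also held a pair of adjoining RUNX matches in reverse, from -85 to -74, and Cxcr6 held a RUNX match, where 14% of all promoters did. No letters of the STAT, forkhead or NF-kB motifs were matched in the windows of the 6 receptors, and Ccr2 and Ccr9 held none of the motifs. GC content was 61.2% for Cxcr4, 46.4% for Ccr4, 37.2% for Ccr2 and 31.6% for Gpr15, against a median of 52.4% over all promoters. Of the 8 genes, 5 lie on chromosome 9 (Ccr2, Ccr4, Ccr9, Cxcr5 and Cxcr6), with 1 protein-coding gene between Ccr9 and Cxcr6 and 4 between Cxcr6 and Ccr2 in the RefSeq order. Ccr10 lies on chromosome 11, Cxcr4 on chromosome 1 and Gpr15 on chromosome 16.

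The libraries differed in quality before any comparison of genotypes. Reads in the genes of the table were 2219941 to 3756559 in Il1rn-/- libraries and 952021 to 3522049 in wild-type libraries. The ribosomal RNA precursor Rn45s took 59.6% to 65.8% of the reads in 6 libraries, called high-rRNA here (Il1rn-/- 1-b and 2-b and wild-type 1-b to 4-b), and 20.3% to 39.95% in the other 8, called low-rRNA (5 Il1rn-/- and 3 wild-type). Reads outside Rn45s were 384360 to 905988 in the high-rRNA libraries and 1654868 to 2805693 in the low-rRNA ones. Y-linked transcripts were found in 4 low-rRNA libraries, Il1rn-/- 3-b and 4-b and wild-type 1-a and 2-a, so within each set they marked 1 genotype only. Il1rn is not among the genes analysed here, so the genotype labels could not be checked on it. The 8 markers of T cell and Treg identity, Foxp3 included, were present in all libraries and summed to 1968 to 3184 CPM in Il1rn-/- libraries and 1951 to 3228 CPM in wild-type libraries.

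By the median over all 14 libraries, the receptors fell into a strong, a middle and a weak tier, though the order differed between the rRNA groups described above. Set per transcript length, so that genes can be compared, the median level over the 14 libraries was 22.6 CPM per kb for Cxcr4, 20.3 for Ccr4 and 12.1 for Ccr2. Gpr15 followed with 9.28 and Cxcr5 with 8.72 CPM per kb, and Cxcr6 with 3.90, Ccr10 with 3.56 and Ccr9 with 2.23 CPM per kb. Neighbours in this order often could not be ranked: Cxcr4 exceeded Ccr4 in 7 of 14 libraries, Ccr4 exceeded Ccr2 in 7, Gpr15 exceeded Cxcr5 in 6 and Cxcr6 exceeded Ccr10 in 7. The steps that most libraries shared were Ccr2 over Gpr15 in 13 of 14, Cxcr5 over Cxcr6 in 12 and Ccr10 over Ccr9 in 11. The median level was 17.2 CPM per kb in Il1rn-/- libraries and 25.5 in wild-type libraries for Cxcr4, 16.5 in Il1rn-/- and 26.1 in wild-type libraries for Ccr4, and 13.0 in Il1rn-/- and 11.1 in wild-type libraries for Ccr2. These medians mix the rRNA groups, with 2 Il1rn-/- and 4 wild-type libraries high in rRNA. As log2 of the mean CPM per kb, low-rRNA Il1rn-/- against wild-type libraries had 3.59 and 4.13 for Cxcr4, 3.97 and 4.07 for Ccr4, and 4.29 and 5.02 for Ccr2. In high-rRNA libraries these were 4.90 and 5.33 for Cxcr4, 4.99 and 5.11 for Ccr4, and 3.35 and 3.06 for Ccr2. Ccr2 and Ccr4 have principal transcripts of several lengths, which would place the median of Ccr2 between 6.89 and 17.4 and that of Ccr4 between 15.1 and 30.7 CPM per kb. In bulk RNA, fewer cells carrying a receptor and less RNA per cell cannot be told apart.

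**Figure D1:**
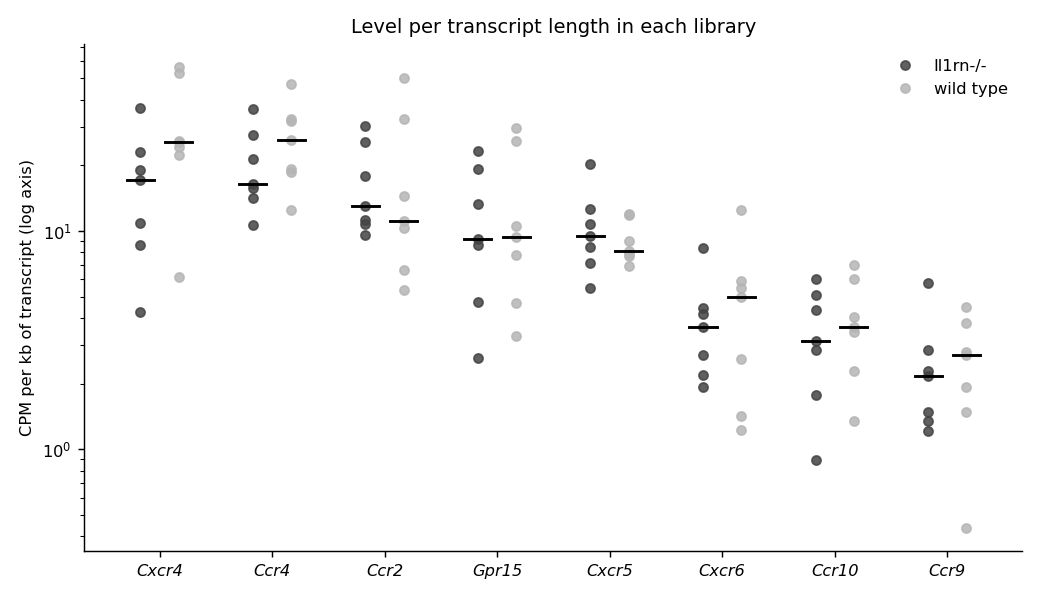
Level of each receptor in CPM per kb of transcript on a log axis, 1 point per library, with 7 Il1rn-/- libraries (dark) left of 7 wild-type libraries (light) and a bar at each median. Cxcr4, Ccr4 and Ccr2 have medians of 22.6, 20.3 and 12.1 over the 14 libraries, and Cxcr6, Ccr10 and Ccr9 lie at 3.90 or below.

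None of the 8 receptors was too weak to compare under the rule used, which asked for at least 10 reads in at least 7 libraries. Ccr9 reached 10 reads in 13 libraries, Ccr10 and Gpr15 in 12, Cxcr6 in 11 and the other 4 in all 14. Counting error alone, 1 SD at the median reads, was 22.6% for Ccr9, 24.3% for Ccr10 and 22.1% for Cxcr6, against 8.30% for Ccr2 and 9.05% for Ccr4. Gpr15 also had 7 to 28 reads in the high-rRNA libraries, where it is as weak as these. Standard errors of the genotype difference were 0.23 to 0.47 on the log2 scale for the 8 receptors, where the median over all tested genes was 0.29.

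No receptor differed between Il1rn-/- and wild-type Tregs after adjustment over the 12329 genes tested, and no other gene did either: 0 genes passed, 0% of those tested (limma with an intensity trend, letter as covariate, Benjamini-Hochberg at 0.05). At an unadjusted p under 0.05 there were 679 genes, 5.51%, and limma voom on recovered reads also called 0 genes with 733 at that level. A single receptor, Cxcr4, was at that level and lower in Il1rn-/- libraries, as were 1.98% of all genes, and no receptor was there in the higher direction, where 3.53% of all genes were. The 7 Il1rn-/- libraries overlapped the 7 wild-type libraries for all 8 receptors, as they did for all but 4 genes of the table tested (0.0324%). The estimates were positive for 3 receptors and negative for 5, with a median of -0.08, where the median of all tested genes was 0.04. For Ccr2, Ccr4, Ccr9, Cxcr5 and Gpr15, 5 of 8, the whole 95% interval of the difference lay within 1 log2 unit either way in this model. With the rRNA group in place of the letter the interval was -1.27 to 0.03 for Gpr15 and -0.41 to 1.17 for Ccr9, and without wild-type 3-a it reached -1.02 for Gpr15. In low-rRNA libraries alone it was -1.75 to 0.44 for Ccr2 and -0.53 to 1.22 for Cxcr5. Without the letter term it was -1.02 to 0.22 for Ccr4, so the interval of each of the 5 passed 1 log2 unit in some alternative.

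**Figure D2:**
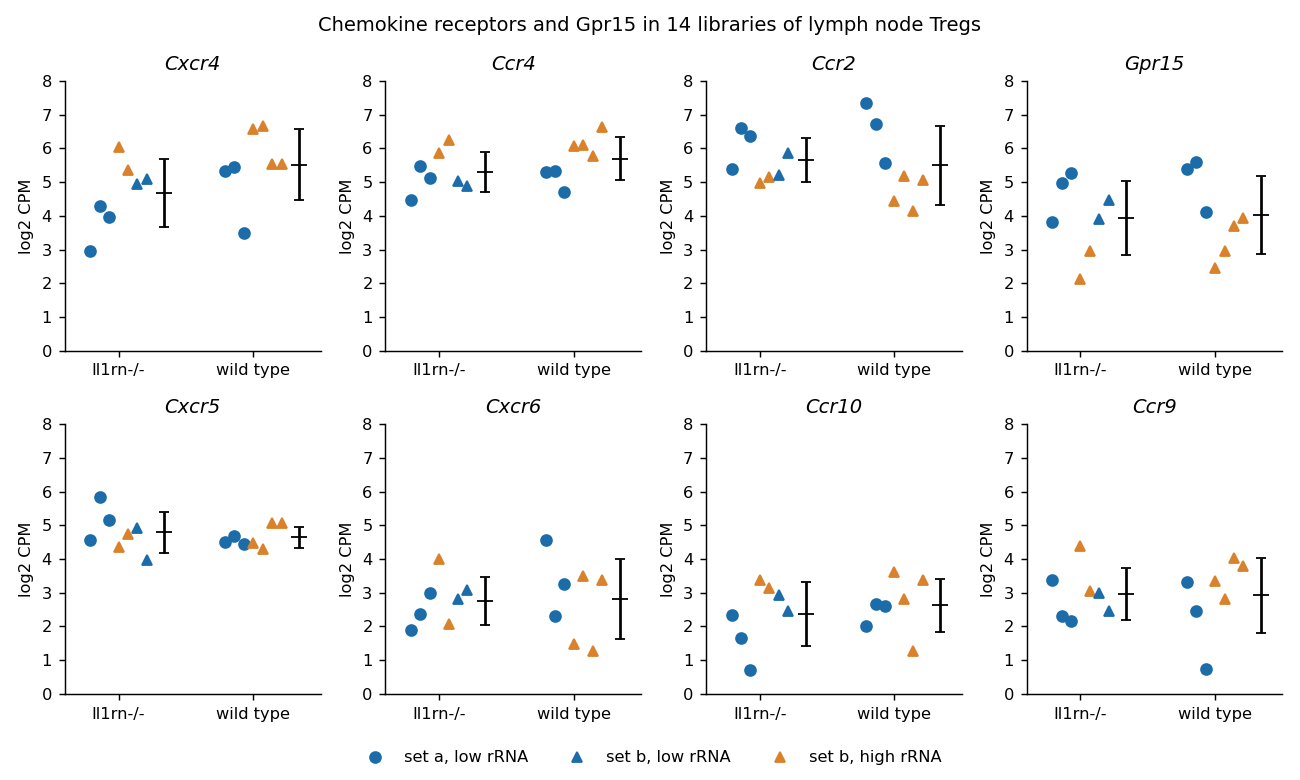
Log2 CPM of each receptor in the 7 Il1rn-/- libraries (left) and 7 wild-type libraries (right), with circles for set a, triangles for set b, colour for the rRNA group, and the mean with its SD beside the points. The genotypes overlap for every receptor, and the low-rRNA and high-rRNA libraries stand apart for Ccr2 and Ccr4.

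Cxcr4, which holds T cells in bone marrow and shapes their entry into tissues, had the largest estimate of the 8 with the letter as covariate, while with the rRNA group in its place that of Gpr15 was larger (-0.62 against -0.44). In set a it read 2.97, 4.31 and 3.97 log2 CPM in Il1rn-/- libraries, against 5.33, 5.46 and 3.48 in wild-type libraries. In set b it read 6.05, 5.37, 4.96 and 5.11 in Il1rn-/- libraries, against 6.58, 6.67, 5.54 and 5.53 in wild-type libraries. The genotypes overlapped in both sets, through wild-type 3-a, which was above Il1rn-/- 1-a alone, and Il1rn-/- 1-b, which was above wild-type 3-b and 4-b, and 6 of 7 Il1rn-/- libraries lay below the wild-type mean. These values rest on 36 to 108 reads in Il1rn-/- libraries and 40 to 188 in wild-type libraries. The difference was -0.84 ± 0.31 (SE, log2, 95% interval -1.49 to -0.19, 7 libraries each), a level of 0.560 times wild type with an interval of 0.357 to 0.877, at limma's unadjusted p = 0.0141 and adjusted p = 0.787. The estimate was -1.01 ± 0.48 in set a (limma's unadjusted p = 0.0477; 0.592% of all genes were lower with an unadjusted p under 0.05) and -0.71 ± 0.41 in set b, with adjusted p = 1.00 and 0.422. In set a it was -1.65 without wild-type 3-a and -0.62 without Il1rn-/- 1-a. With the rRNA group in place of the letter it was -0.44 ± 0.35, and -0.21 ± 0.24 with Y-linked transcripts added. In the low-rRNA libraries Cxcr4 read 4.96 to 5.46 in the 4 with Y-linked transcripts and 2.97 to 4.31 in the 4 without, with no overlap, as for 2.34% of all tested genes with that direction. The part of rRNA content and of Y-linked transcripts in the genotype estimate was not tested beyond these values.

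Ccr4, the receptor for CCL17 and CCL22 that is known for drawing Tregs to dendritic cells and skin, had the second largest estimate with the letter as covariate and the second smallest with the rRNA group in its place. In set a it read 4.49, 5.48 and 5.11 log2 CPM in Il1rn-/- libraries, against 5.29, 5.34 and 4.72 in wild-type libraries. In set b it read 5.85, 6.24, 5.04 and 4.89 in Il1rn-/- libraries, against 6.06, 6.10, 5.77 and 6.63 in wild-type libraries. Set a showed no ordering of the genotypes, and in set b the low values were those of Il1rn-/- 3-b and 4-b, the low-rRNA libraries of that set. The difference was -0.40 ± 0.23 (SE, log2, 95% interval -0.88 to 0.08) with limma's adjusted p = 0.787 over all genes. It was -0.09 ± 0.34 in set a and -0.63 ± 0.30 in set b, where limma's unadjusted p was 0.0460 and adjusted p 0.324 and 6.42% of all genes were at that level in this direction. With the rRNA group in place of the letter the estimate was -0.10 ± 0.17. Ccr4 was 5.77 to 6.63 in all 6 high-rRNA libraries and 4.49 to 5.48 in all 8 low-rRNA ones.

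Ccr2, the receptor for CCL2 known from monocytes and from T cells at inflamed sites, gave estimates of opposite sign in the sets. In set a it read 5.40, 6.62 and 6.38 log2 CPM in Il1rn-/- libraries, against 7.35, 6.73 and 5.56 in wild-type libraries. In set b it read 4.97, 5.14, 5.20 and 5.87 in Il1rn-/- libraries, against 4.44, 5.18, 4.13 and 5.07 in wild-type libraries. Every set a library was above every wild-type library of set b, and the genotypes overlapped within each set. The difference was 0.16 ± 0.29 over all libraries (SE, log2, 95% interval -0.44 to 0.76), -0.41 ± 0.41 in set a and 0.59 ± 0.35 in set b. The difference between the sets was itself 1.00 ± 0.54, with limma's unadjusted p = 0.0769 and adjusted p = 0.659. With the rRNA group in place of the letter the estimate changed sign, to -0.24 ± 0.29. Ccr2 was 5.20 to 7.35 in the low-rRNA libraries and 4.13 to 5.18 in the high-rRNA ones, so the groups did not overlap. Their means differed by 0.84 among Il1rn-/- and 1.84 among wild-type libraries. Among wild types the low-rRNA libraries are those of set a and the high-rRNA ones those of set b, so rRNA content and set cannot be told apart there. In all, 2 of the 8 receptors separated the rRNA groups without overlap: Ccr2, higher in low-rRNA libraries like 8.35% of all tested genes, and Ccr4, lower like 6.56%.

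Gpr15, the gut-homing receptor known from Tregs of the mouse colon, had its highest values in set a, like Ccr2. In set a it read 3.83, 4.98 and 5.26 log2 CPM in Il1rn-/- libraries, against 5.40, 5.61 and 4.11 in wild-type libraries. In set b it read 2.13, 2.97, 3.92 and 4.46 in Il1rn-/- libraries, against 2.45, 2.96, 3.68 and 3.95 in wild-type libraries. Within set b the range of the Il1rn-/- libraries enclosed that of the wild-type libraries. The difference was -0.09 ± 0.36 (SE, log2, 95% interval -0.85 to 0.68), and -0.62 ± 0.31 with the rRNA group in place of the letter (limma's unadjusted p = 0.0620, adjusted p = 1.00). It was -0.55 ± 0.46 in the low-rRNA libraries alone and -0.71 ± 0.54 in the high-rRNA libraries alone. Gpr15 averaged 1.67 log2 units more in low-rRNA than in high-rRNA libraries, the largest such gap of the 8. Its exons share 204 bases, 12.45% of their length, with Cpox on the opposite strand, and the strand handling is not given in the sources used here. Cpox itself had 3 to 24 reads in Il1rn-/- libraries and 3 to 20 in wild-type libraries and differed by 0.22 ± 0.37.

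Ccr9, the other gut receptor and also a thymocyte gene, was the weakest of the 8 per transcript length. It had 48, 19 and 20 reads in the Il1rn-/- libraries of set a and 34, 16, 25 and 16 in those of set b, against 35, 23 and 9 reads in the wild-type libraries of set a and 15, 10, 14 and 25 in those of set b. In log2 CPM it spanned 2.16 to 4.39 in Il1rn-/- libraries (median 2.99) and 0.74 to 4.03 in wild-type libraries (median 3.31). The genotypes covered much the same span, and the lowest library of all was wild-type 3-a. The difference was 0.04 ± 0.40 (SE, log2, 95% interval -0.80 to 0.87). An opposite-strand gene, AC165425.1, overlaps 1932 bases or 18.83% of its exons. Thymocyte markers, with 5 of 6 in the table, summed to 9.83 to 31.8 CPM in Il1rn-/- libraries and 6.97 to 34.8 CPM in wild-type libraries. The sums came mostly from Cd1d1, which other cells also express, while Rag2 was at 0 in 11 libraries, Dntt in 9 and Ptcra in 8, and their part in Ccr9 was not tested.

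Cxcr5, which takes follicular T cells to B cell follicles, had the steadiest level across the libraries. In set a it read 4.58, 5.84 and 5.16 log2 CPM in Il1rn-/- libraries, against 4.51, 4.67 and 4.45 in wild-type libraries. In set b it read 4.34, 4.75, 4.93 and 3.96 in Il1rn-/- libraries, against 4.48, 4.29, 5.08 and 5.07 in wild-type libraries. Set a had 2 Il1rn-/- libraries above all its wild types, and set b had no such order. The difference was 0.14 ± 0.23 over all libraries (SE, log2, 95% interval -0.35 to 0.63), 0.64 ± 0.33 in set a and -0.23 ± 0.28 in set b. The difference between the sets was -0.88 ± 0.43, with limma's unadjusted p = 0.0585 and adjusted p = 0.647. B cells also carry Cxcr5, and all 10 B cell markers were in the table, with sums of 55, 73, 68, 23, 39, 37 and 19 CPM in Il1rn-/- 1-a to 3-a and 1-b to 4-b and of 81, 64, 43, 32, 29, 33 and 61 CPM in wild-type 1-a to 3-a and 1-b to 4-b. The highest Cxcr5 library, Il1rn-/- 2-a, had the second highest of these sums. Wild-type 1-a, with the highest sum, had Cxcr5 at 4.51, and wild-type 3-b had Cxcr5 at 5.08 with a sum of 33 CPM. Pax5, which defines B cells, had 0 to 4 reads per library and was at 0 in 7. By contrast, 5 of the 10 markers had reads in every library. Among them, Cd79b had 9 to 87 reads in Il1rn-/- and 4 to 126 in wild-type libraries, and Ms4a1 had 7 to 54 and 1 to 37. The part of B cell RNA in Cxcr5 was not tested.

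Cxcr6 and Ccr10, the receptors for CXCL16 and for CCL27 and CCL28, had few reads and wide intervals. Cxcr6 had 17, 20 and 36 reads in the Il1rn-/- libraries of set a and 26, 8, 22 and 25 in those of set b, against 84, 21 and 54 reads in the wild-type libraries of set a and 4, 16, 2 and 19 in those of set b. Its log2 CPM spanned 1.90 to 4.00 in Il1rn-/- libraries and 1.27 to 4.57 in wild-type libraries, so the wild types enclosed the knockouts. The Cxcr6 difference was -0.07 ± 0.47 (SE, log2, 95% interval -1.06 to 0.91). Ccr10 had 23, 12 and 7 reads in the Il1rn-/- libraries of set a and 17, 17, 24 and 16 in those of set b, against 14, 27 and 34 reads in the wild-type libraries of set a and 18, 10, 2 and 19 in those of set b. Its log2 CPM spanned 0.70 to 3.39 in Il1rn-/- libraries and 1.27 to 3.61 in wild-type libraries, with the lowest values in Il1rn-/- 3-a and wild-type 3-b. The Ccr10 difference was -0.25 ± 0.40 (SE, log2, 95% interval -1.08 to 0.58). Both receptors had estimates below 0 in set a, -0.96 ± 0.68 for Cxcr6 and -0.87 ± 0.59 for Ccr10, and above 0 in set b, 0.59 ± 0.59 and 0.21 ± 0.51. The differences between the sets were 1.54 ± 0.90 for Cxcr6 and 1.07 ± 0.78 for Ccr10, and neither passed.

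**Figure D3:**
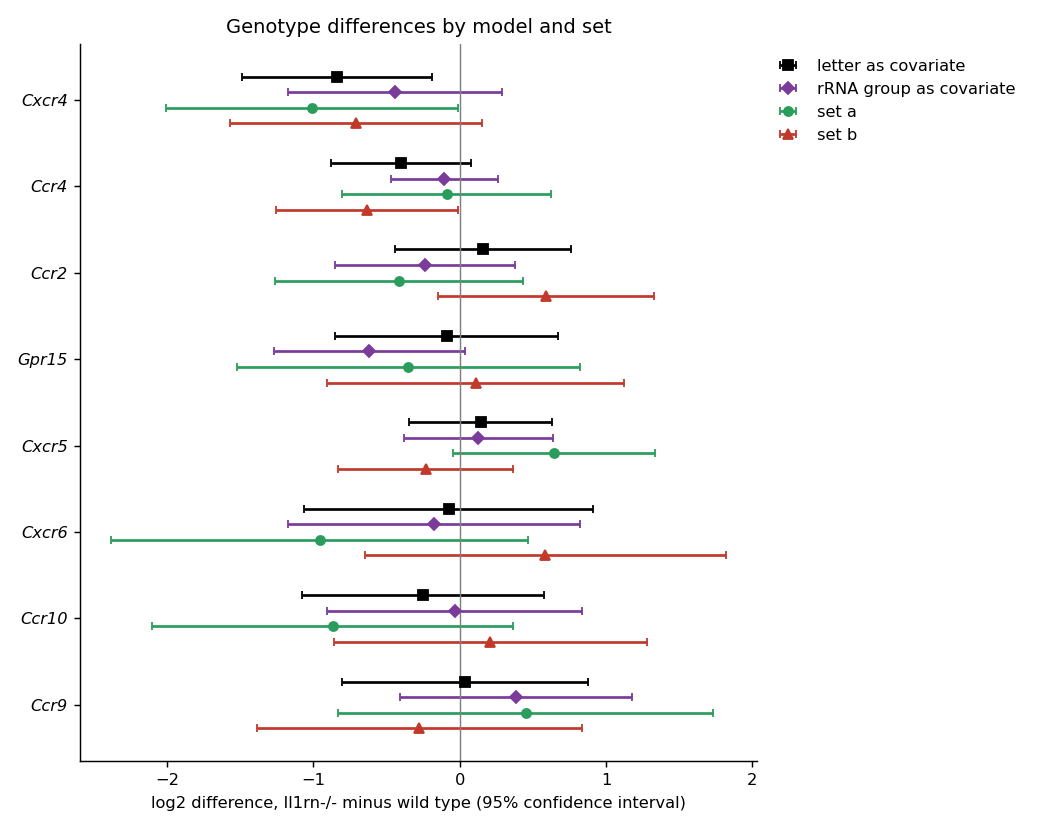
Genotype difference of each receptor on the log2 scale, Il1rn-/- minus wild type, with 95% confidence intervals, for all libraries with the letter or the rRNA group as covariate and for set a and set b. Cxcr4 is at -0.84 with the letter and -0.44 with the rRNA group, and the intervals of Cxcr6, Ccr10 and Ccr9 are the widest.

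Shown apart by set, no receptor passed in either set. In set a 2 estimates were positive and 6 negative, with a median of -0.38 (0.03 over all genes), and in set b 4 were positive and 4 negative, with a median of -0.06 (0.05 over all genes). No receptor had Il1rn-/- libraries all on one side of the wild types, 0 of 8 in set a and 0 of 8 in set b, where 7.97% and 4.28% of all tested genes did. The adjusted test called 0 genes in set a (243 unadjusted, 1.97%), 0 in set b (1848, 15.0%) and 0 for the difference between the sets (968, 7.85%), and limma voom called 0 in each (552, 1596 and 1271 unadjusted). In the higher direction no receptor was at an unadjusted p under 0.05, where 1.38% of all genes were in set a and 8.57% in set b. For the difference between the sets no receptor was at that level either, where 3.32% of all genes were with a positive and 4.53% with a negative difference. In set b the low-rRNA libraries were all Il1rn-/-, so genotype and rRNA content move together there.

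Ccr2 and Gpr15 varied together among the low-rRNA libraries, with a Pearson r of 0.93 over 8 libraries, the highest there among all pairs of receptors. Among the 6 high-rRNA libraries, where Gpr15 had only 7 to 28 reads, their r was -0.12. Ccr2 and Ccr4 had an r of 0.76 over the low-rRNA and 0.57 over the high-rRNA libraries, and Ccr4 and Gpr15 had 0.80 and 0.48. Cxcr5 and Gpr15 had an r of 0.24 over the low-rRNA and 0.87 over the high-rRNA libraries. Other pairs were negative over the high-rRNA libraries: Cxcr4 and Cxcr5 had -0.14 and -0.81, and Cxcr4 and Gpr15 had 0.56 and -0.57, in the same order. These are descriptions over libraries that share a depth group. Among 5145 genes searched over the 14 libraries, with the mean of each rRNA group removed, the closest in pattern to Cxcr4 were Fam46c (r 0.96), a poly(A) polymerase gene, Dnajb1 (0.92), a heat shock co-chaperone, and Spty2d1 (0.89), a histone chaperone. Each of them, like Cxcr4, was higher in the low-rRNA libraries with Y-linked transcripts than in those without, with no overlap, as were 2.34% of all tested genes. For Fam46c the values were 6.36 to 6.82 with and 5.58 to 5.97 without. That split was not removed before these r values were taken. Those closest to Ccr2 were Incenp (0.91), a chromosomal passenger protein, Lax1 (0.90), a membrane adaptor of lymphocyte signalling, and Itgae (0.89), which encodes the integrin CD103. Ccr4 was closest to the checkpoint receptor Tigit (0.86), to Glrx (0.85), a glutaredoxin, and to Cst7 (0.85), a protease inhibitor. Gpr15 was closest to Adam19 (0.89), a membrane metalloprotease, Prex1 (0.86), a Rac exchange factor, and Fbxw11 (0.84), an F-box protein. Cxcr5 was closest to Ighm (0.86), the immunoglobulin mu chain, Chpf (0.84), a chondroitin synthesis enzyme, and Slc25a39 (0.82), a mitochondrial carrier. Ccr10 was closest to Fubp1 (0.89), a nucleic acid-binding protein, Stau1 (0.86), an RNA-binding protein, and Lpcat3 (0.85), a phospholipid acyltransferase. Ccr9 was closest to Kat7 (0.80), a histone acetyltransferase, Gtf2e1 (0.77), a general transcription factor subunit, and Ptdss1 (0.77), a phosphatidylserine synthase. Cxcr6 was closest to Suclg2 (0.78), a subunit of succinyl-CoA ligase, Riox2 (0.77), a ribosomal oxygenase, and Cd2bp2 (0.77), a splicing protein. Of the genes nearest to the strong and middle receptors, Fam46c differed by -0.37 ± 0.18 and Ighm by 0.36 ± 0.21 between genotypes (adjusted p = 0.787 and 0.790, limma over all genes).

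**Figure D4:**
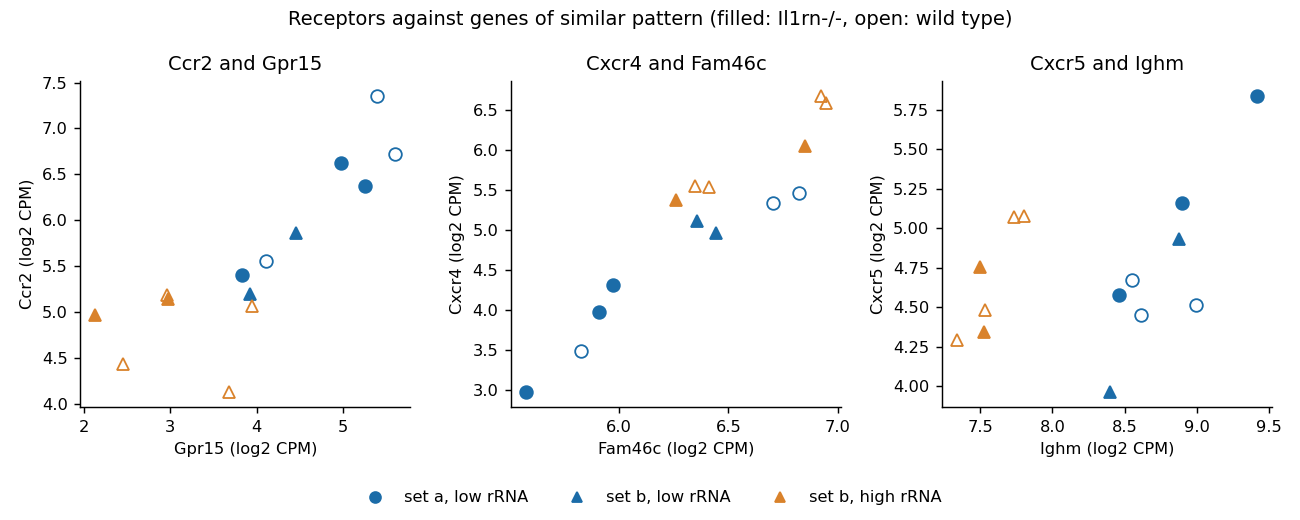
Log2 CPM of Ccr2 against Gpr15, Cxcr4 against Fam46c and Cxcr5 against Ighm, 1 point per library, filled for Il1rn-/- and open for wild type, with circles for set a, triangles for set b and colour for the rRNA group. Ccr2 and Gpr15 lie on 1 line among the low-rRNA libraries (r 0.93, 8 libraries) and scatter among the high-rRNA ones (r -0.12, 6 libraries).

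No other gene listed of the chemokine system passed the test. Of 18 other chemokine receptors listed, 13 were in the table and 12 were tested, with 4 estimates positive, 8 negative, a median of -0.06 and 0 at an unadjusted p under 0.05. Those with the smallest p included 3 with at most 20 reads in any library, Xcr1 (0.94 ± 0.78) and Ccr1 (0.87 ± 0.75), receptors of dendritic cells and myeloid cells, and Cxcr2 (-1.11 ± 0.94), a neutrophil receptor, and the fourth was Ccr6 (0.25 ± 0.23), found on Th17-like cells. Of 34 chemokine ligands, 17 were in the table and 9 were tested, with 1 estimate positive, 8 negative, a median of -0.18 and 1 at an unadjusted p under 0.05, Mif (-0.72 ± 0.26), a cytokine that can bind Cxcr4 and Cxcr2. At that level were 5.51% of all tested genes, 1.98% in the lower direction, and the median of all tested genes was 0.04. The ligands Ccl25 of Ccr9 (0.81 ± 0.66), Ccl28 of Ccr10 (-1.16 ± 0.97) and Cxcl10 of Cxcr3 (-0.38 ± 0.48) had the next smallest p. These rest on few reads, 0 to 2 for Ccl28 in both genotypes. Ccl25 had 2 to 11 reads in Il1rn-/- and 0 to 5 in wild-type libraries, and Cxcl10 had 3 to 16 and 2 to 26. Of 32 genes of receptor signalling and desensitisation, 28 were tested, with 16 estimates positive, 12 negative and a median of 0.05. At an unadjusted p under 0.05, where 5.51% of all genes were, stood 2 of the 28, Rgs14 (0.35 ± 0.17), which speeds the shut-off of Gi, and Gng5 (-0.71 ± 0.34), a G protein gamma subunit, followed by the receptor kinase Grk5 (-1.01 ± 0.49) and the beta subunit Gnb1 (-0.32 ± 0.16). Of 18 regulators of receptor expression, 17 were tested, with 8 positive, 9 negative, a median of -0.00 and 0 at that level. The genome organiser Satb1 (-0.29 ± 0.14) and the transcription factors Irf4 (-0.26 ± 0.17), Bcl6 (-0.37 ± 0.36), which drives the follicular program with Cxcr5, and Batf (-0.15 ± 0.17) were the first 4 of that list by p. All these differences are log2, Il1rn-/- minus wild type with SE, and no gene of these lists passed the adjusted test, where 0% of all genes did. The genes named under 0.05 unadjusted differed more in set b, where genotype and rRNA content move together. Mif was -0.24 in set a and -1.08 in set b, Gng5 0.007 and -1.24, and Rgs14 0.09 and 0.55.

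Markers of other cells that could carry these receptors overlapped between the genotypes. Monocyte and macrophage markers, 9 of 12 in the table, summed to 2.15 to 29.4 CPM in Il1rn-/- and 11.5 to 18.1 CPM in wild-type libraries. Csf1r had 0 to 6 reads, Fcgr1 was at 0 in 12 libraries and Cd14 at 0 in 10. Lyz2 alone of these markers had reads in every library, 3 to 81 in Il1rn-/- and 3 to 48 in wild-type libraries. Its medians were 5.69 CPM in Il1rn-/- and 8.16 CPM in wild-type libraries, where the medians of the sums were 9.83 and 13.99 CPM. Dendritic cell markers, 5 of 10 in the table, summed to 104 to 230 CPM in Il1rn-/- libraries and 105 to 174 CPM in wild-type libraries, mostly from Cd83, which activated T cells also express, with Zbtb46 and Siglech each at 0 in 7 libraries. Plasma cell markers, 6 of 7, summed to 81.5 to 231 CPM in Il1rn-/- libraries and 127 to 228 CPM in wild-type libraries, mostly from Xbp1 and Irf4, which Tregs also express, while Sdc1 was at 0 in 9 libraries. Markers of CD8 T, NK and innate lymphoid cells, 8 of 11, summed to 51.1 to 77.4 CPM in Il1rn-/- libraries and 46.5 to 95.7 CPM in wild-type libraries. Neutrophils were represented by 1 of 7 markers, Csf3r, at 0 in 10 libraries, with sums of 0 to 0.613 CPM in Il1rn-/- libraries and 0 to 2.19 CPM in wild-type libraries. Red cells and platelets were represented by 3 of 7, with sums of 0.517 to 9.76 CPM in Il1rn-/- libraries and 0 to 2.46 CPM in wild-type libraries. Of those red cell sums, 5 of 7 in Il1rn-/- libraries were above every wild-type one, with medians of 3.73 CPM in Il1rn-/- and 0.549 CPM in wild-type libraries. The part of these cells in the receptor values was not tested. None of the 32-base words of Cxcr6 and Ccr10 recur in other genes, while 21.6% for Ccr9 and 10.8% for Gpr15 recur, mostly in the genes that overlap them.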

How the data were processed

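The authors deposited 1 table of log2 CPM values for 14449 genes in 14 libraries. Smart-Seq2 libraries were quantified by Cuffquant 2.2.1, per the labels' protocols, and the submitters' processing notes list Cuffnorm, Cufflinks 2.2.1, TopHat2 2.0.10 and BWA. Not given in the sources used here are the build, the annotation, strand handling and the tool that made the log2 CPM. A gene with 0 reads has -3.58 in every library, and the steps between low values gave whole reads for 100% of values within 0.001. Intervals of reads cover counting error only, since the reads carry no molecular identifiers.

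The 12329 genes that exceeded 1 CPM in 3 or more libraries entered limma 3.58.1 in R 4.3.3 on the deposited log2 values (intensity trend, two-sided, Benjamini-Hochberg at 0.05 over all of them), with genotype and letter as terms. A model with 4 groups gave the sets and their difference. The steps were checked on simulated data, and other work used Python 3.11.15 and numpy 2.4.6. High-rRNA libraries had over 50% of reads in Rn45s, and Y-linked libraries at least 20 such reads. Lengths are medians of GENCODE principal transcripts, and sequences and positions are from RefSeq GRCm38.p6, with promoters for 6 of the 8 receptors. Named were all 8 receptors, the 4 genes of smallest p in each list, and per receptor the 3 genes of highest r with a mean log2 CPM from 4 upwards, leaving out predicted genes; Cpox was added for shared sequence. The shared sequence of 1 receptor is not reported here. The receptors, lists and alternatives were chosen with earlier results of these data known. Libraries of the same replicate number did not vary together, and the main model has no pairing term. Alternatives covered the filter, prior count, centring, letter term, replicate block, rRNA group, Y-linked transcripts, variance model, voom, library subsets and each library left out.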

Additional observations from a re-analysis of the deposited data

How the results depend on the processing

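Of 640 alternative values for the 8 receptors, 606 kept their sign and their side of the threshold, 34 changed sign and 0 passed the adjusted threshold. Part of the 606 could not change sign. The other filters, no letter term, the replicate block and no intensity trend leave the estimate itself as it was. Leaving out a library of 1 set likewise leaves the estimate within the other set unchanged. Cxcr4 and Ccr4 stayed below 0 in all 26 alternatives for the genotype difference, at -1.06 to -0.21 and -0.51 to -0.08. The genotype difference of Ccr2 was -0.24 with the rRNA group in place of the letter, -0.20 with Y-linked transcripts added and -0.65 in low-rRNA libraries alone. That of Ccr10 was 0.076 with rRNA group and Y-linked transcripts and 0.50 in high-rRNA libraries alone, where Cxcr5 was -0.18 and Cxcr6 0.63. Within set b, Ccr10 was -0.065 under limma voom. Leaving out 1 library at a time, the genotype difference spanned -0.27 to 0.21 for Ccr9, -0.025 to 0.27 for Cxcr5 (below 0 without Il1rn-/- 2-a), -0.34 to 0.23 for Cxcr6 and -0.30 to 0.12 for Gpr15. Within set a it spanned -0.32 to 0.18 for Ccr4, -0.26 to 1.02 for Ccr9 and -0.81 to 0.078 for Gpr15. Within set b it spanned -0.29 to 0.49 for Ccr10 (below 0 without wild-type 3-b) and -0.25 to 0.52 for Gpr15, and the difference between the sets spanned -0.090 to 0.94 for Cxcr4. Over all genes, 2 passed for genotype in low-rRNA libraries alone and 13 in high-rRNA libraries alone. Leaving out 1 library gave 0 to 1 genes in set a (1 without wild-type 3-a) and 0 to 230 in set b (230 without Il1rn-/- 2-b, 7 without Il1rn-/- 1-b, 3 without wild-type 1-b), and the cause was not tested. Libraries of the same replicate number did not vary together (7 pairs, r of their deviations -0.15 to 0.000517, none closest to its own number). Whether the numbers mark a pairing is not settled by these values. With a replicate block the Cxcr4 difference was -0.84 ± 0.26 (limma's unadjusted p = 0.00661, adjusted p = 0.861). In that model 0 genes passed, and 633 were under 0.05 unadjusted. The SE was smaller with the block for Cxcr4, Ccr9 and Gpr15 and larger for the other receptors. Depth limits Ccr9, Ccr10 and Cxcr6 throughout and Gpr15 in high-rRNA libraries.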
